A study of Mus musculus with 6 samples.

Results

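The 10 genes described here are marker genes of Sertoli cells, the somatic supporting cells of the seminiferous tubule: Sox9, Amh, Wt1, Gata4, Clu, Fshr, Inha, Dhh, Aard and Rhox5. They were chosen by name, as known markers, out of 21440 protein-coding mouse genes with a known 5′ end. For each gene, every ATAC-seq peak was taken that overlapped the gene or the 10 kb on either side of it, and a peak within 3 kb of the 5′ end was placed in the promoter. ATAC-seq uses a transposase that cuts open DNA, so a peak marks accessible chromatin. Peaks were listed for 6 libraries labelled as Pnd 5 (postnatal day 5) spermatogonia, germ cells that have not yet entered meiosis. Per the labels, 3 libraries were from S7KO mice and 3 from WT mice, and the libraries carry the numbers 1, 2 and 4 of their titles in each genotype. Per the study, S7KO mice are Sirt7-/-, which takes away the histone deacetylase SIRT7, with no cell type named to which the knockout would be limited, and both genotypes are on the same inbred mouse background. Germ cells were enriched by removing interstitial cells after a first digestion and then by plating, which holds back somatic cells that adhere. They were not sorted. Per the study, flow cytometry of WT cells after plating found most of them positive for PLZF, a marker of undifferentiated spermatogonia. No value in the lists gives the share of Sertoli cells.

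Sertoli cells decide the fate of the fetal gonad and later nurse the germ cells. SOX9, WT1 and GATA4 are transcription factors of that programme, and SOX9 is an activator of Amh. Sertoli cells speak to other cells through anti-Müllerian hormone (Amh), inhibin (Inha) and desert hedgehog (Dhh), and they receive follicle-stimulating hormone of the pituitary through the receptor encoded by Fshr. A promoter peak shows that DNA was accessible in some of the cells and does not show that the gene was transcribed. In a bulk library, fewer cells of a type and less accessible chromatin per cell cannot be told apart.

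The lists held between 105728 and 133663 peaks on chromosomes 1 to 19, X and Y, and WT replicate 2 had the fewest. Covered sequence ran from 81.5 to 108 Mb. Fragments were not counted in these lists and depth is unknown, so the strength of a peak is given here as its rank by −log10 q within its own list, in percent of that list. A small percent is a strong peak, and 100% is the weakest peak of a list. The targeted gene, Sirt7 (chr11:120618371-120625014, minus strand), had a promoter peak in all 6 libraries, at ranks of 17.8%, 8.07% and 7.75% in S7KO and 12.4%, 12.5% and 5.62% in WT. The groups overlapped, and a peak at the promoter does not check the knockout. Of 18 genes of spermatogonia, the labelled cell type, all 18 had a promoter peak in all 6 libraries. As 74.0% of all genes (15867 of 21440) and 6 of 6 genes of peritubular myoid cells also had one, this count does not tell cell types apart.

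Of the 10 Sertoli genes, 9 had a promoter peak in every one of the 6 libraries, against the same 74.0% of all genes. Rhox5 was the exception, with no peak in any library. In each of the 9, a region of merged peaks lay over the 5′ end itself in all 6 libraries. These promoters were accessible but not among the strongest. The median of their mean ranks was 15.6%, against 8.23% over the 15867 genes with a promoter peak in all 6 libraries. Fold enrichment, the ratio of a peak's pileup to its local background, had a median of 2.96 for the Sertoli genes and of 4.86 for all those genes. In order of mean rank, Clu was strongest at 3.31%, followed by Aard at 12.0%, Inha at 13.3%, Sox9 at 15.0%, Dhh at 15.6%, Fshr at 16.1%, Gata4 at 18.3%, Wt1 at 18.6% and Amh at 29.8%. The value of Dhh, which is also the median, is that of a peak that began inside the gene. The region over the Dhh 5′ end had a mean rank of 56.0%. Clu stood clear of the rest, since its weakest value in any library, 3.98%, was stronger than any value of the other 8 genes. From Aard to Wt1 the ranges over libraries overlapped between all neighbours in the order, and Wt1 overlapped with Amh. Ordered by mean fold enrichment instead, Clu (5.25) and Fshr (5.07) stood together above the others, which lay between 2.48 and 3.68.

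**Figure D1:**
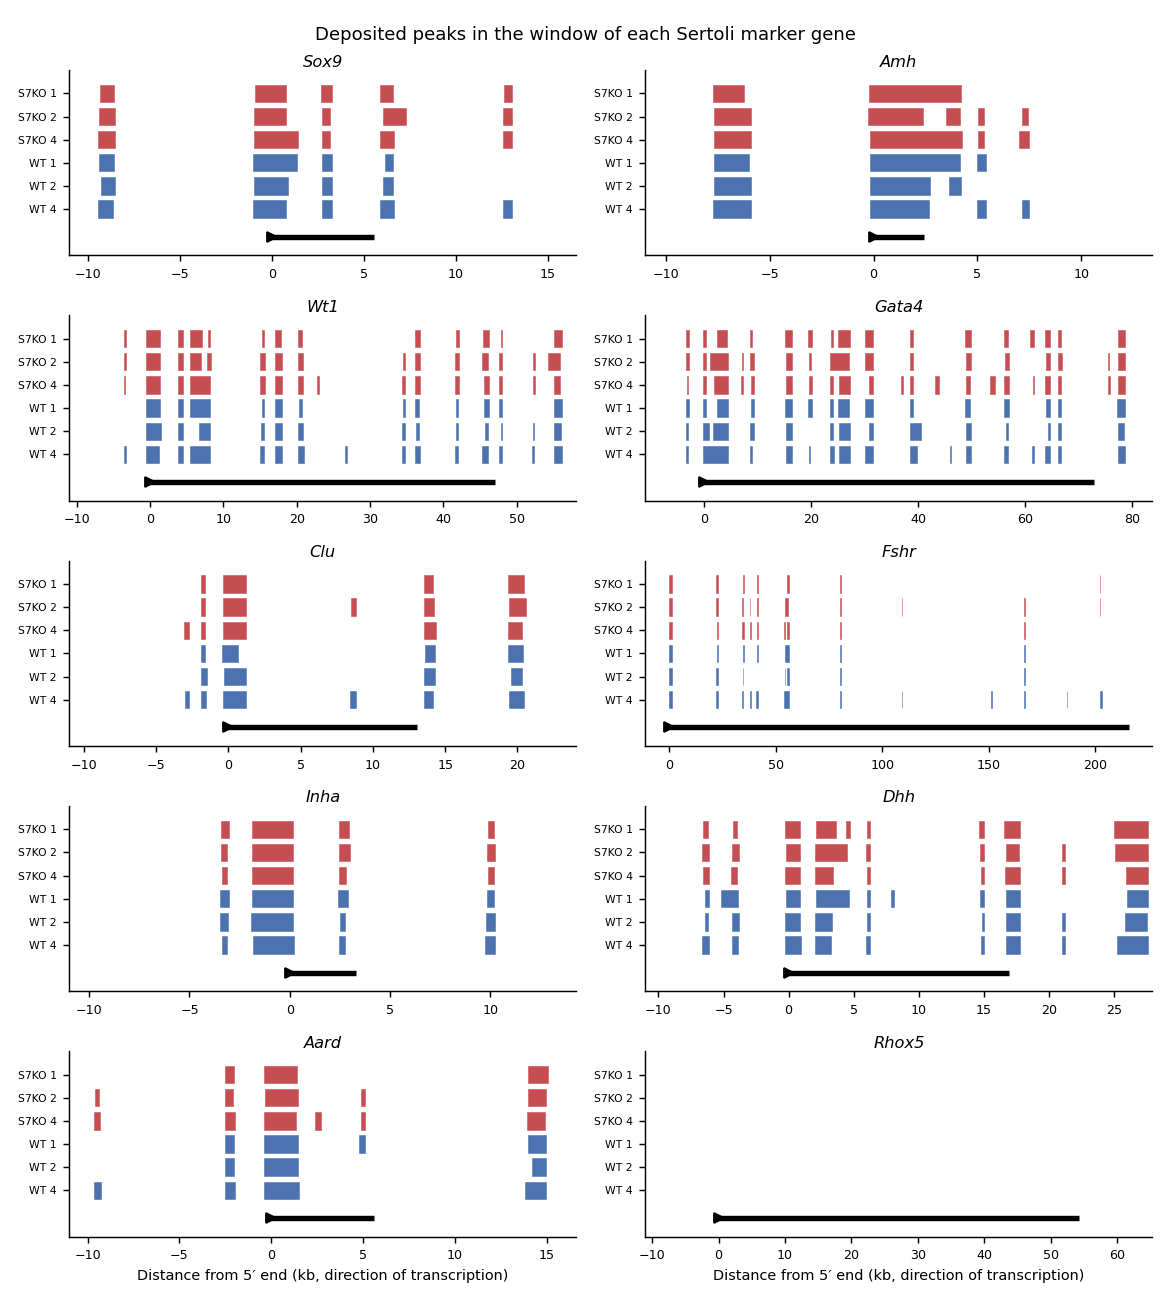
Peaks in the window of each Sertoli gene, 1 row per library (red S7KO, blue WT), with distance from the 5′ end in kb along the direction of transcription on the x axis and the gene as a black bar that starts at the arrowhead. In 9 windows peaks over the 5′ end appear in all 6 rows, and the window of Rhox5 holds none.

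Sox9 encodes the transcription factor that sets the Sertoli fate and lies at chr11:112782210-112787757 (GRCm38, plus strand). The rank of its promoter peak, given here and in later sentences in the order of replicates 1, 2 and 4, was 19.7%, 11.6% and 10.0001% for S7KO and 16.7%, 20.9% and 10.9% for WT. The genotypes overlapped, and the S7KO mean of 13.8 ± 5.20% (SD over 3 libraries) differed little from the WT mean of 16.2 ± 5.05% (exact permutation test, two-sided p = 0.6, n = 3 each). The strongest region of its window lay outside the promoter, upstream at position -9425 to -8536 from the 5′ end (chr11:112772785-112773674). This region ranked at 4.22%, 5.04% and 4.44% in S7KO and at 4.75%, 6.66% and 1.62% in WT, with fold enrichments between 6.38 and 8.03. It thus stood above the Sox9 promoter in each of the 6 libraries, and its genotypes overlapped.

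Wt1, a zinc-finger factor needed to maintain Sertoli cells, lies at chr2:105126529-105173614 (plus strand). Promoter ranks were 22.6%, 25.1% and 16.4% in S7KO and 22.4%, 9.89% and 15.4% in WT. The S7KO mean of 21.4 ± 4.50% was weaker than the WT mean of 15.9 ± 6.28%, but the groups overlapped (exact permutation test, n = 3 each, p = 0.2). The 5′ end of Wt1os, an antisense gene, lies at position -19, so the peak cannot be given to Wt1 alone. A further 10 of the 16 regions in the window were called in all 6 libraries, mostly in the gene body. Of these 10, the strongest, at 36116 to 36744 downstream of the 5′ end, had a mean rank of 27.9%.

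Gata4, the GATA factor that acts with its cofactor FOG2 on Amh and Inha, lies at chr14:63198914-63271712 (minus strand). Its promoter peak ranked at 16.7%, 14.4% and 10.6% in S7KO and at 19.9%, 19.3% and 29.1% in WT. Gata4 was the one Sertoli gene whose promoter values did not overlap between genotypes: each S7KO library held the stronger rank. The means were 13.9 ± 3.11% and 22.8 ± 5.48%, a difference of -8.88 percentage points, and the exact permutation p of 0.1 is the smallest that 3 against 3 libraries allow. Adjusted over all genes (Benjamini-Hochberg) it was 1. In WT replicate 4, the library with the weakest rank, 1 peak of 4681 bp ran over the promoter, where the other libraries had a peak of 558 to 1148 bp at the 5′ end and a separate one downstream, so that value is of a differently joined peak. Without WT replicate 4 the groups still did not overlap, and the difference was -5.72 points. Gata4 also held a stronger region outside the promoter, in the gene body at 15091 to 16493 from the 5′ end (chr14:63255219-63256621). It ranked at 13.4%, 6.60% and 7.05% in S7KO and at 9.50%, 10.01% and 6.71% in WT, with no separation of the genotypes. The still stronger region past the 3′ end, with a mean rank of 3.94%, covers the 5′ end of Neil2 and is not counted for Gata4.

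Amh encodes anti-Müllerian hormone, which removes the Müllerian duct in the male embryo, and lies at chr10:80805240-80807679 (plus strand). Its promoter had the weakest mean rank of the 9, and the weakest rank in each library but WT replicate 4, where Gata4 was weaker. The Amh promoter ranked at 35.6%, 26.4% and 30.5% in S7KO and 38.2%, 23.2% and 24.7% in WT. The genotypes overlapped almost fully, with means of 30.8 ± 4.62% and 28.7 ± 8.24% (n = 3 each; exact permutation test, p = 0.7). The gene was nevertheless open along its length. In 5 libraries a single peak ran past both ends of the gene, in S7KO replicate 2 it ended at 2394, within the gene, and the merged region spanned -249 to 4243. Peaks were joined differently here. Those of S7KO replicates 1 and 4 and WT replicate 1 were 4341 to 4415 bp long and ranked at 30.5% to 38.2%. Those of S7KO replicate 2 and WT replicates 2 and 4 were 2644 to 2883 bp long and ranked at 23.2% to 26.4%. Peaks covered 26.6% of the 22440 bp window on average, which put Amh at the 99.3rd percentile of all genes. Part of this is a neighbour's, since the region at -7734 to -5911 lies over the 5′ ends of Plekhj1 and Sf3a2.

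Inha encodes the alpha subunit shared by the inhibins, which lower pituitary secretion of follicle-stimulating hormone. The gene lies at chr1:75507077-75510366 (plus strand). The promoter peak ranked at 14.4%, 11.6% and 10.7% in S7KO and 16.5%, 17.2% and 9.63% in WT. The WT values fell on either side of the S7KO values (12.2 ± 1.91% against 14.4 ± 4.19%; n = 3 each, exact permutation test, p = 0.4). Obsl1 has its 5′ end within the same region, at position -591, so the peak is shared by the pair of genes. The merged region ended at 75507295, whereas the 250 bases before the annotated start site of the RefSeq promoter table begin at 75507359. The printed stretch of Inha therefore lay outside the peaks of all 6 libraries.

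Dhh, the hedgehog ligand through which Sertoli cells act on Leydig and peritubular cells, lies at chr15:98881615-98898562 (minus strand). Its strongest peak within 3 kb ranked at 16.3%, 17.6% and 9.40% in S7KO and 23.7%, 17.4% and 9.48% in WT, and the genotypes overlapped (14.4 ± 4.40% against 16.8 ± 7.11%; n = 3 each, exact permutation test, p = 0.7). This peak was not the one at the start of the gene but began inside it, in the region at 2051 to 4686. The region over the 5′ end itself (-274 to 917) was far weaker, at 63.8%, 49.3% and 54.6% in S7KO and 59.6%, 63.0% and 45.7% in WT. Those values also overlapped. The strongest region of the window, at 16571 to 17763 with a mean rank of 2.16%, lies at the 5′ end of the neighbouring Rhebl1.

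The RefSeq promoter table of GRCm38.p6 held 4 of the 10 genes, and their 250 bases upstream of the annotated start site are given 5′ to 3′ on the strand of the gene, to set the letters beside the peaks. Capitals mark matches, on either strand, to a short list of motifs: AGATAA or TGATAA or AGATAG or TGATAG for GATA factors, AACAAT or AACAAA or TACAAT for SOX factors, AAGGTCA or AAGGCCA for NR5A1, the E-box CACGTG, and AGAACA, one arm of an androgen receptor site. The shares of all 21263 promoters of this length that hold at least 1 such match were 23.6%, 26.0%, 8.13%, 6.63% and 13.7%, in that order. A match is only a match of letters. Inha (chr1:75507359-75507608) and Dhh (chr15:98898541-98898790) held none.
Inha: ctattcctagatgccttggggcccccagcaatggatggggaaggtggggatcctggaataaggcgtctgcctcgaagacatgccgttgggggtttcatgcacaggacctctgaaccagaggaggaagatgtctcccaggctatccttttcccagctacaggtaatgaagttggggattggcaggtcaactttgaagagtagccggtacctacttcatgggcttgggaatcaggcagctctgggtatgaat
Dhh: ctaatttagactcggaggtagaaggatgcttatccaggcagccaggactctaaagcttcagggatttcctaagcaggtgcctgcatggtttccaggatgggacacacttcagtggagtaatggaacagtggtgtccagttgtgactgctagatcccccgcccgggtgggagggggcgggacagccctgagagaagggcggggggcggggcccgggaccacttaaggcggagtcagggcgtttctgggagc
Fshr: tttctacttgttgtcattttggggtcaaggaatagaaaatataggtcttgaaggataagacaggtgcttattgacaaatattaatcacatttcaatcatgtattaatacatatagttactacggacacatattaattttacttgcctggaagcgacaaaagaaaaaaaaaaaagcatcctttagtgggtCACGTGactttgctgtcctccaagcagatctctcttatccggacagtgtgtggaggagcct
Rhox5: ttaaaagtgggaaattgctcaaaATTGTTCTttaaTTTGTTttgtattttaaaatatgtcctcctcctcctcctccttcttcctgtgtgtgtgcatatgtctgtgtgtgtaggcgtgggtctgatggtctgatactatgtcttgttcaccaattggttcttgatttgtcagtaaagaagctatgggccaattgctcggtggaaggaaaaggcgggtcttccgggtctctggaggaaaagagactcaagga

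The Dhh stretch was the richest of the 4 in G and C at 59.6%, against a median of 55.6% over all promoters, and Inha had 53.6%. Fshr (chr17:89200676-89200925) had 36.8%, lower than all but 6.70% of promoters, and Rhox5 (chrX:37754358-37754607) had 42.8%. The ratio of observed to expected CpG was below the median of 0.530 in all 4, at 0.230 in Inha, 0.363 in Rhox5, 0.432 in Dhh and 0.476 in Fshr.

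Fshr encodes the receptor for follicle-stimulating hormone, in the testis a product of Sertoli cells, and lies at chr17:88984952-89200675 (minus strand). The E-box CACGTG in its sequence lies at -61 to -56 from the start site. The promoter peak ranked at 15.0%, 14.6% and 16.6% in S7KO and 18.7%, 17.4% and 14.3% in WT. These are the tightest values in S7KO after those of Clu, and they overlapped between genotypes (15.4 ± 1.05% against 16.8 ± 2.30%; n = 3 each, exact permutation test, p = 0.5). Fold enrichment at the promoter was 5.21, 4.93 and 5.18 in S7KO and 4.88, 5.13 and 5.07 in WT. A region in the gene body at 22267 to 23068 (chr17:89177607-89178408) was stronger still, at ranks of 6.20%, 7.60% and 5.46% in S7KO and 10.8%, 7.18% and 5.22% in WT. It ranked above the promoter in each of the 6 libraries. Peaks were otherwise sparse along this long gene, with 2.52% of its 235724 bp window covered on average and 5 of its 12 regions called in all 6 libraries.

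Sox9, Gata4 and Fshr were thus 3 of 9 genes whose strongest region called in all 6 libraries lay outside the promoter. Outside the promoters, regions within 3 kb of another gene's 5′ end were left out of this comparison. Promoter regions shared with a neighbour, as at Wt1 and Inha, were kept. Among all 15867 genes the share with the strongest region outside the promoter was 22.2%.

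Clu encodes clusterin, a secreted glycoprotein abundant in Sertoli cells and also made in many other tissues, and lies at chr14:65968483-65981548 (plus strand). Its promoter peak ranked at 3.48%, 2.73% and 2.95% in S7KO and 3.75%, 3.98% and 2.97% in WT. Fold enrichment ran from 5.02 to 5.45. The values of the genotypes overlapped by the one WT library at 2.97% (3.06 ± 0.387% against 3.57 ± 0.529%; n = 3 each, exact permutation test, p = 0.2). Aard, which encodes an alanine- and arginine-rich protein found in Sertoli cells, lies at chr15:52040107-52045722 (plus strand) and ranked at 13.5%, 11.9% and 9.16% in S7KO and 13.3%, 14.4% and 9.67% in WT. The Aard groups overlapped, with means of 11.5 ± 2.203% and 12.5 ± 2.47% (exact permutation test, n = 3 each, p = 0.6).

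Rhox5, a homeobox gene of the X chromosome that responds to androgen in Sertoli cells, lies at chrX:37754608-37808878 (plus strand). No peak of any of the 6 libraries fell in its 74271 bp window. The nearest region lay 70995 bp away on the side of lower coordinates and 197900 bp away on the other side. Of 4560 genes with a window at least as long, 79 (1.73%) held no peak in any library, and on the X chromosome 6 of 192 did. The 250 bases before the Rhox5 start held SOX-type matches at -227 to -222 and -215 to -210 and an AGAACA match at -225 to -220, all on the reverse strand, and the first and the last of these overlap. Among the 33 Rhox genes of the cluster, 4 had a promoter peak in any library: Rhox10, Rhox11 and Rhox13 in 6 libraries each and Rhox12 in 3. Rhox8, the other Rhox gene known from Sertoli cells, had no peak either. The Rhox2, Rhox3 and Rhox4 groups hold near-identical copies, and the authors kept uniquely mapped reads only, so reads shared by these copies were dropped. How far the mappability of the Rhox5 window set its result was not tested.

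Between genotypes, the promoter ranks of 8 of the 9 Sertoli genes with a peak in all libraries overlapped. No gene was weaker in every S7KO list than in any WT list, where 1.24% of the 15867 genes were, and 1 of 9 (Gata4) was stronger in every S7KO list, where 5.22% of genes were. The S7KO mean was the weaker one in 2 of 9, Amh and Wt1, and the median difference was -1.36 percentage points, against -0.286 over all genes. With exact permutation tests no gene of the genome passed the adjusted threshold, which 3 against 3 libraries cannot reach. limma on normal scores of the ranks, a model that can reach it, called 0 of all genes at an adjusted p under 0.05, with 373 genes at an unadjusted p under 0.05, among them Gata4 (limma, p = 0.0173, adjusted p = 0.999903).

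**Figure D2:**
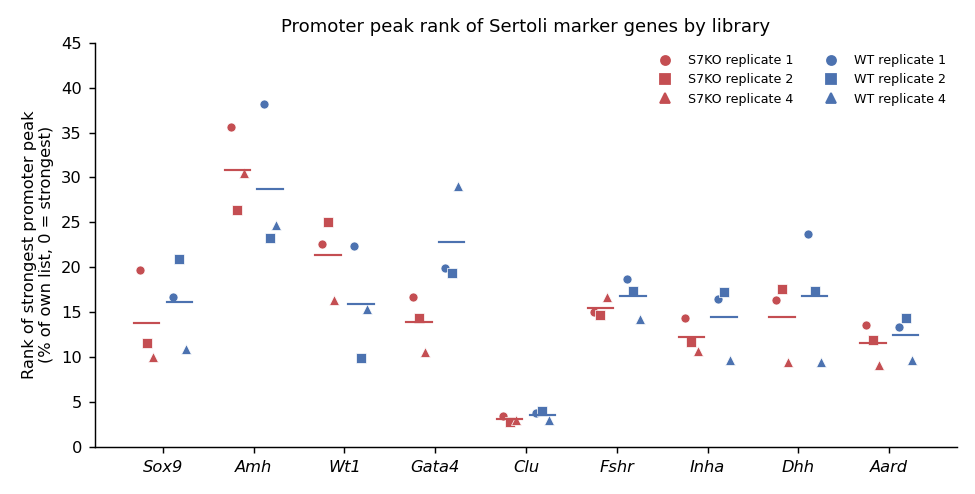
Rank of the strongest promoter peak in percent of its own list (y axis, 0 = strongest) for the 9 Sertoli genes with a promoter peak, 1 point per library (red S7KO, blue WT; marker shape gives the replicate number) and a line at the mean of 3. Clu lies between 2.73% and 3.98% in all libraries, and Gata4 is the one gene with all S7KO points below all WT points. The points of Dhh are of a peak that began inside the gene, not of the weaker one over its 5′ end.

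The length covered by peaks, summed over each window, overlapped between genotypes at each of the 9 genes with peaks. It was larger on average in S7KO in 7 of 10 genes, a direction seen in 67.1% of all genes. WT replicate 2 had the smallest total, and its part in this direction was not tested. With an equal number of peaks taken from each list, covered length was larger in S7KO in 4 genes, and Gata4, Clu and Aard turned to the opposite direction. No Sertoli gene had all 3 of its S7KO values above all 3 WT values, against 6.35% of all genes, and none had all 3 below, against 0.508%. At Sox9 the covered length was 4288, 4769 and 4975 bp in S7KO and 4166, 3626 and 4374 bp in WT. S7KO replicates 2 and 4 lay above all WT values and S7KO replicate 1 within them (4677 ± 353 against 4055 ± 386 bp; n = 3 each, exact permutation test, p = 0.2, adjusted p = 1). Gata4 had the largest difference with all peaks, at 15527, 17736 and 17503 bp in S7KO and 15067, 15063 and 17475 bp in WT. Its groups overlapped through WT replicate 4 and S7KO replicate 1 (16922 ± 1214 against 15868 ± 1391 bp; exact permutation test, n = 3 each, p = 0.2). limma on log2 of the covered length called 4 of all genes at an adjusted p under 0.05, with 748 at an unadjusted p under 0.05, and none of the 10 Sertoli genes was among the 4. Inha was the most even, at 3318, 3290 and 2961 bp against 3348, 3170 and 3057 bp. Fshr varied most among WT libraries, with 5333, 4058 and 9224 bp, and its S7KO values of 4472, 6735 and 5774 bp lay between them. As a share of the window, coverage was highest at Amh (26.6%), then Dhh (19.4%), Gata4 (17.7%), Sox9 (17.1%), Wt1 (15.9%), Aard (14.1%), Inha (13.7%), Clu (11.3%) and Fshr (2.52%), and 0 at Rhox5. The median was 15.0% for the 10 genes and 6.91% for all genes. Regions near the 5′ ends of other genes are included in these shares. At Dhh they include those at 16571 to 17763 and 25002 to 27621, near the 5′ ends of Rhebl1 and Kmt2d.

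**Figure D3:**
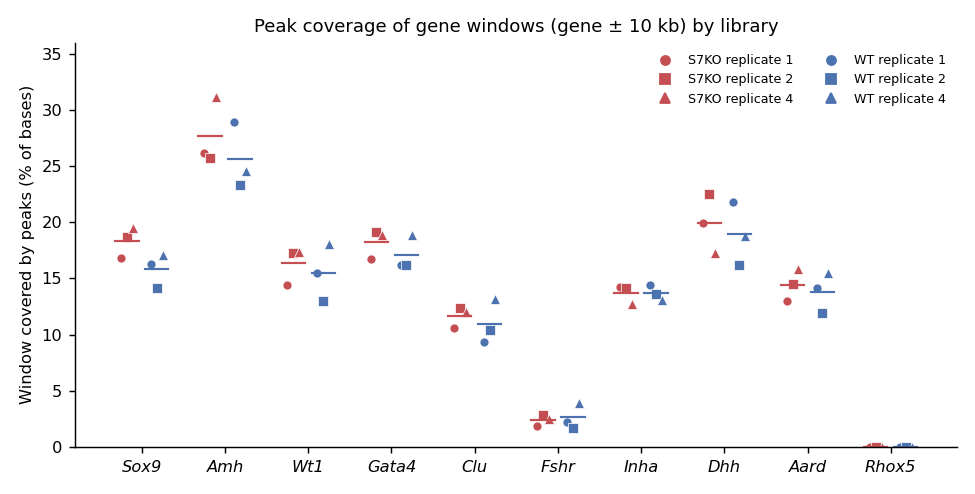
Percent of each window (gene and 10 kb on either side) covered by peaks (y axis), 1 point per library (red S7KO, blue WT; marker shape gives the replicate number) and a line at the mean of 3. S7KO and WT points overlap at each of the 9 genes with peaks, Amh lies highest and Rhox5 is at 0 in all 6 libraries.

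Peaks of the 6 libraries merged into 83 regions within the windows, of which 53 (63.9%) were called in all 6 libraries, against 57.1% of the 158725 regions of the genome. Gata4 held 20 regions, Wt1 16, Fshr 12, Dhh 10, Clu and Aard 6 each, Sox9 5, and Amh and Inha 4 each. In promoters 15 of 17 regions were called in all 6 libraries, in the flanks 14 of 22 and in gene bodies 24 of 44. The 30 regions missing from at least 1 library were narrower, with a median width of 363 bp against 1068 bp. They moved with the library: S7KO replicates 1, 2 and 4 held 6, 18 and 22 of them and WT replicates 1, 2 and 4 held 7, 4 and 21. Replicates 1 were thus alike across genotypes, as were replicates 4, and 26 of the 30 were missing from WT replicate 2. No region in the windows was called in 3 of 3 S7KO and 0 of 3 WT libraries, a pattern shown by 0.416% of all regions, and none showed the opposite, which 0.0743% did.

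Among the 53 regions called in all libraries, 2 ranked weaker in every S7KO list than in any WT list, against 1.35% of the 90689 such regions of the genome, and 3 ranked stronger, against 5.98%. These 5, named after their values were seen, had exact permutation p = 0.1 (n = 3 each) and an adjusted p of 1. The weaker ones lay downstream of Sox9 (chr11:112788092-112789517) and downstream of Clu (chr14:65987855-65989092). The Sox9 region ranked at 78.3%, 63.9% and 62.1% in S7KO and 57.0%, 47.7% and 51.3% in WT, a gap of 16.1 points between the means. The Clu region ranked at 37.6%, 42.7% and 39.2% in S7KO and at 29.2%, 32.9% and 28.7% in WT, a gap of 9.54 points. S7KO values were the weaker ones in both. The stronger ones were the Gata4 promoter, a region in the Gata4 body at 66135 to 66940 and one in the Wt1 body at 5427 to 8283. The Gata4 body region ranked at 73.1%, 51.6% and 64.3% in S7KO and at 97.4%, 90.4% and 75.2% in WT. At Wt1 the values were 45.8%, 54.9% and 58.0% in S7KO and 67.6%, 61.2% and 66.4% in WT. Peaks were joined differently there: the ranks of S7KO replicates 1 and 2 are those of separate pieces of 367 and 488 bp, whose companion pieces ranked at 71.4% and 73.4%, while S7KO replicate 4 and WT replicates 1 and 4 had 1 joined peak of 2643 to 2756 bp. Apart from the Gata4 promoter, each of these ranked at 28.7% or weaker in all 6 libraries.

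Other gene groups give these values a scale. Of 20 further Sertoli genes, 16 had a promoter peak in all 6 libraries, with a median rank of 30.0%. The protease gene Ctsl was their strongest at 1.12%, and Rhox8 and Tsx had no promoter peak. Of 13 genes whose products bind, receive or follow the signals of the 10 (among them the activin receptor gene Acvr1b at 8.89%), 10 had one, with a median of 22.6%, and Inhba had none in any library. Spermatogonial genes had a median of 16.7%, close to that of the 10 Sertoli genes, with Etv5, a factor of stem cell self-renewal, strongest at 1.49%. Of 6 Leydig genes 5 had a promoter peak in all 6 libraries, with Star, which brings cholesterol into mitochondria, at 2.57%, and all 6 peritubular myoid genes did, with Cnn1 at 6.34%. The 4 genes of the ovarian path, which SOX9 opposes, also had promoter peaks in all libraries, with a median of 32.5% and Wnt4 strongest at 29.6%. Of 8 genes of blood and endothelium, 4 had a promoter peak in all 6 libraries, with Kdr strongest at 8.01%, 1 had one in fewer libraries and 3 had none, among them the macrophage genes Adgre1 and Cx3cr1. Of 10 genes of tissues outside the gonad, 4 had one in all 6 libraries, with Myl7 strongest at 17.0%, 4 in fewer libraries and 2, Alb and Fabp2, in none. The share over all genes was 74.0%, and differences between the groups were not tested. A promoter peak was therefore found for germ cell, Sertoli, Leydig and myoid genes alike, and which cells supplied the peaks was not tested.

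**Figure D4:**
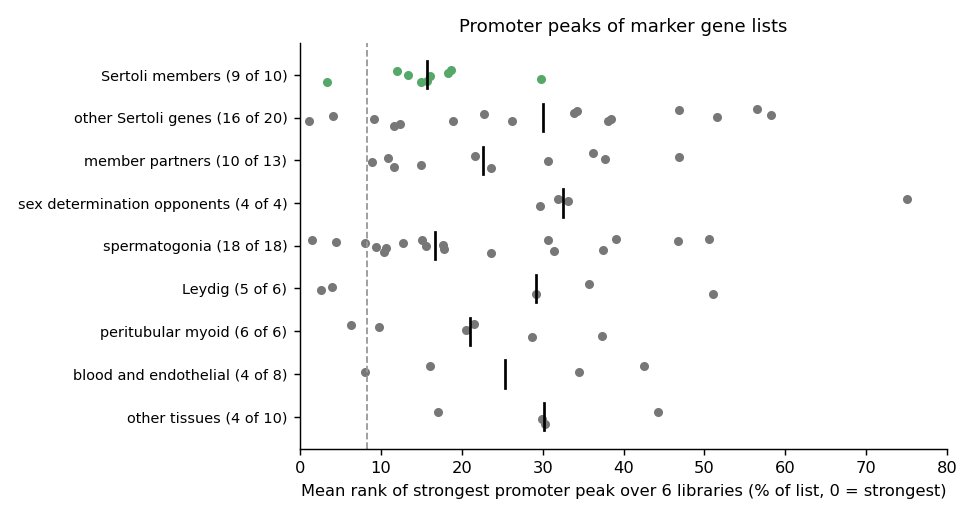
Mean rank of the strongest promoter peak over 6 libraries in percent of the list (x axis, 0 = strongest), 1 point per gene with a promoter peak in all 6 libraries, by gene group; the number with such a peak of the number in the group is in brackets, black bars are medians and the dashed line is the median of all genes, 8.23%. The Sertoli genes (green, median 15.6%) lie between 3.31% and 29.8%, and the spermatogonial genes spread more widely around a median of 16.7%.

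Between genotypes the same groups gave few separated promoters. None of the further Sertoli genes, the partner genes, the ovarian genes or the Leydig genes was separated in rank, while 2 of 18 spermatogonial genes, Nanos2 and Lin28a, ranked stronger in every S7KO list (5.22% of all genes) and 1 of 6 myoid genes, Tagln, ranked weaker (1.24% of all genes). Covered length was larger in every S7KO library at Inhbb and Fgf9 among the further Sertoli genes. Among the partners it was larger at Gli1 and Tgfbr3, and at Inhbb, which stands in both groups. It was also larger at Rspo1 and Fst of the ovarian path, at Tagln and at Gh of the other tissues, and smaller in every S7KO library at Cyp17a1 of the Leydig genes, a pattern of 0.508% of all genes. At Gli1, a target of the hedgehog pathway into which Dhh feeds, covered length was 12513, 10542 and 10455 bp in S7KO and 9278, 9334 and 9480 bp in WT. All 3 S7KO values lay above all 3 WT values, a pattern of 6.35% of all genes. The promoter rank of Gli1 overlapped between genotypes, at 25.7%, 22.6% and 18.8% in S7KO and 28.3%, 22.7% and 11.3% in WT. Dhh itself overlapped in both promoter rank and covered length. Ptch1 and Hhip, hedgehog pathway genes of the same group, overlapped between genotypes. Ptch1 had 15923, 13659 and 13860 bp in S7KO and 13652, 10575 and 14435 bp in WT. Hhip had 5322, 5657 and 5370 bp in S7KO and 5288, 3884 and 5923 bp in WT. These genes were named after their values were seen.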

How the data were processed

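The files were 6 broad peak lists, 1 per library. The authors trimmed the reads with Trim Galore 0.6.6, aligned them to mm10 (GRCm38) with Bowtie2 2.4.4.1, kept uniquely mapped reads without duplicates or mitochondrial sequence, corrected read ends for the Tn5 offset with deepTools 3.5.1 and called broad peaks with MACS2 2.2.5. The fragment lengths behind the calls are not settled by the sources used here. Per peak, the deposited columns hold a display score, a fold enrichment (a ratio), the −log10 of the p-value and the −log10 of the q-value, all as the authors' caller wrote them, and the largest q-value was 0.0983. The score and p-value columns were not used here. The authors' differential test in DiffBind was not repeated, since no counts were used.

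Gene starts and ends came from a RefSeq table of GRCm38.p6, which holds no exons, so exons and introns were not told apart. Strand came from the RefSeq promoter table for 17492 genes and otherwise from the GENCODE gene of the same symbol and chromosome (3948). This placed the 5′ end of 21440 of 21887 protein-coding genes. Peaks were ranked within each list by −log10 q, which rises with width and depth as well as with height. Peaks that overlapped or touched, from any library, were joined into regions. For all genes, values of 3 S7KO and 3 WT libraries entered a two-sided exact permutation test over 20 assignments, with Benjamini-Hochberg adjustment over all of them. limma 3.58.1 (R 4.3.3) was the alternative, on normal scores of the ranks or on log2 of the covered length plus 1 bp. Both were tested on simulated data. Python 3.11.15, numpy 2.4.6, pandas 2.3.3 and scipy 1.17.1 were used. The study calls the 3 libraries of a genotype biological replicates, but the labels name no mouse, so p-values may measure only the spread between these samples.

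The 10 genes, the other gene lists and the tests were chosen with earlier results of these data known. All 10 genes were named, and of each other list genes without a promoter peak (at most 2) and the gene with the strongest mean rank; others are marked as named after their values were seen. A neighbouring gene was named where its 5′ end lay near a region described in the text. Replicate numbers of the titles (1, 2 and 4) were checked for pairing. Deviations from the group means correlated at 0.179, 0.0109 and 0.324 between libraries of the same number. Between libraries of different numbers the correlations ran from -0.337 to 0.140. The main tests did not use the numbers, and these values do not settle whether the numbers pair the libraries. Results within the numbers are given as the replicate block in the closing section. Peak numbers were also alike in S7KO and WT for replicates 1 (119786 and 118881) and replicates 4 (133299 and 133663). Whether libraries of a number were handled together was not tested.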

Additional observations from a re-analysis of the deposited data

How the results depend on the processing

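The count of 9 Sertoli genes with a promoter peak in all libraries, the counts of 0 genes with less covered sequence in S7KO and of 0 WT-specific regions held in each alternative run for them (−log10 q of at least 3, equal numbers of peaks, leaving out each library and, where it applied, promoters within 1 kb, gene bodies alone, covered length over the library total and regions covered by at least 50%). The count of promoters stronger in every S7KO list, 1 in the report, was 2 when peaks were ranked by fold enrichment and 0 by limma's adjusted p, and ranged from 1 to 4 when 1 library was left out (4 without WT replicate 4, 2 without S7KO replicate 1). The count of weaker promoters, 0, ranged from 0 to 2 (2 without WT replicate 1, 1 without S7KO replicate 4). More covered sequence, 0 genes, ranged from 0 to 3 (3 without WT replicate 4, 2 without S7KO replicate 1, 1 without WT replicate 1), and S7KO-specific regions, 0, from 0 to 2 (2 without S7KO replicate 1 and 2 without WT replicate 4). With 2 libraries in a group, separation is easier to reach, and those counts are not set beside the shares of all genes. The cause was not tested.

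With the replicate block (differences within the numbers 1, 2 and 4, all of the same sign), 2 promoters were stronger, 1 was weaker and 2 genes had more covered sequence in S7KO, and 6 regions were weaker and 8 stronger. The smallest sign-flip p this block allows is 0.25. These numbers are those of the titles, and a description label numbers the replicates differently. By the titles, the libraries of a number share only that number. S7KO replicates 1 and 4 each correlated best with the WT library of their own number (0.179 and 0.324). S7KO replicate 2 correlated about equally with WT replicate 4 (0.0198) and WT replicate 2 (0.0109). A batch behind the numbers was not tested. By alternatives chosen after the data were seen, separated regions ranged from 2 to 7 (weaker) and 4 to 11 (stronger) when 1 library was left out, and 1 was stronger with equal numbers of peaks.

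Single genes changed direction as follows. With equal numbers of peaks, the S7KO minus WT difference in covered length became -490 bp at Gata4, -67 bp at Clu and -514 bp at Aard. Leaving out 1 library, the difference in promoter rank ranged from -0.650 to 6.83 points at Amh, from -6.09 to 1.01 at Dhh and from -2.32 to 0.253 at Aard, and that in covered length from -1618 to 965 bp at Fshr, -147 to 887 at Dhh, -69.3 to 112 at Inha, -87.7 to 371 at Aard, -47.8 to 587 at Clu and -293 to 1415 at Wt1. Of these, the -514 bp at Aard exceeded the SDs of both genotypes in the report (360 and 463 bp). Of the other values per gene, without the replicate block, whose means cannot differ from those of the report, 75 in rank and 68 in covered length kept their direction. Unknown depth, peak calls made per library and 3 libraries per genotype limit all of these values, and WT replicate 2, with the fewest peaks, limits those that need all 6 lists.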
